A study of Mus musculus with 6 samples.

Results

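The genes described here mark Schwann cells, the glia of peripheral nerve, and the myelin that these cells wrap around motor and sensory axons. They were taken by symbol from the table of gastrocnemius genes, where all 8 were found among 25344 genes: the myelin protein genes Mbp, Pmp22, Prx, Mag and Cnp, the transcription factor genes Egr2 and Sox10, and the calcium-binding protein gene S100b. RNA of the gastrocnemius, a calf muscle, was sequenced in 3 libraries of wild-type mice (WT) and 3 libraries of littermates with an NRTN transgene (HSA-NRTN). NRTN encodes neurturin, a secreted GDNF-family factor with receptors on neurons. The transgene is placed under the human alpha-skeletal actin promoter, so the muscle fibres are the cells that make it. The labels give no age, no sex, no transgenic line and no number of animals behind a library, and p-values therefore reflect library-to-library spread, which may be technical. Nrtn itself was at 3.21, 1.70 and 4.33 FPKM in the WT libraries and at 178, 201 and 169 FPKM in the HSA-NRTN libraries, which matches every label. FPKM are reads divided by gene length and by the total of reads counted in genes.

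Schwann cells reach muscle with its nerve branches. Sox10 gives the lineage its identity at every stage, and together with it Egr2, also called Krox20, switches on the genes of compact myelin. Pmp22 encodes a membrane protein of compact peripheral myelin, Mbp encodes the basic protein that holds the cytoplasmic faces of the membrane together, Prx encodes periaxin of the Schwann cell surface beneath the basal lamina, Mag encodes an adhesion protein that faces the axon, and Cnp encodes an enzyme of the uncompacted cytoplasm. In whole muscle, more cells of a type and more RNA per cell cannot be told apart.

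Egr2 and Mag rose the most in HSA-NRTN muscle, Mbp and Pmp22 rose less, Prx and S100b rose on FPKM as deposited and missed the threshold with the size factors, and Cnp and Sox10 did not pass the test. Mean Egr2 was 7.10 times the WT mean in FPKM, Mag 3.73 times, Mbp 1.90 times, S100b 1.69 times, Pmp22 1.63 times, Prx 1.52 times, Sox10 1.41 times and Cnp 1.28 times (n = 3 libraries each). None was called lower. These shares depend on the scaling between libraries. FPKM divide by the total of each library. Scaling instead by the size factors of the authors, which the deposited table allows to be recovered, shifts HSA-NRTN relative to WT by -0.30 on the log2 scale, so each result is given under both. The summed level of 7 muscle fibre markers, which take a large part of all reads, ran from 49486 to 55930 FPKM in WT and from 30281 to 33695 FPKM in HSA-NRTN. In the test given below, 1 of these 7 was called higher and 5 lower, against 41.6% and 11.7% of all tested genes. With the size factors these were 1 and 6, against 21.1% and 29.9%. The part of the summed level in the difference between the scalings was not tested.

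**Figure D1:**
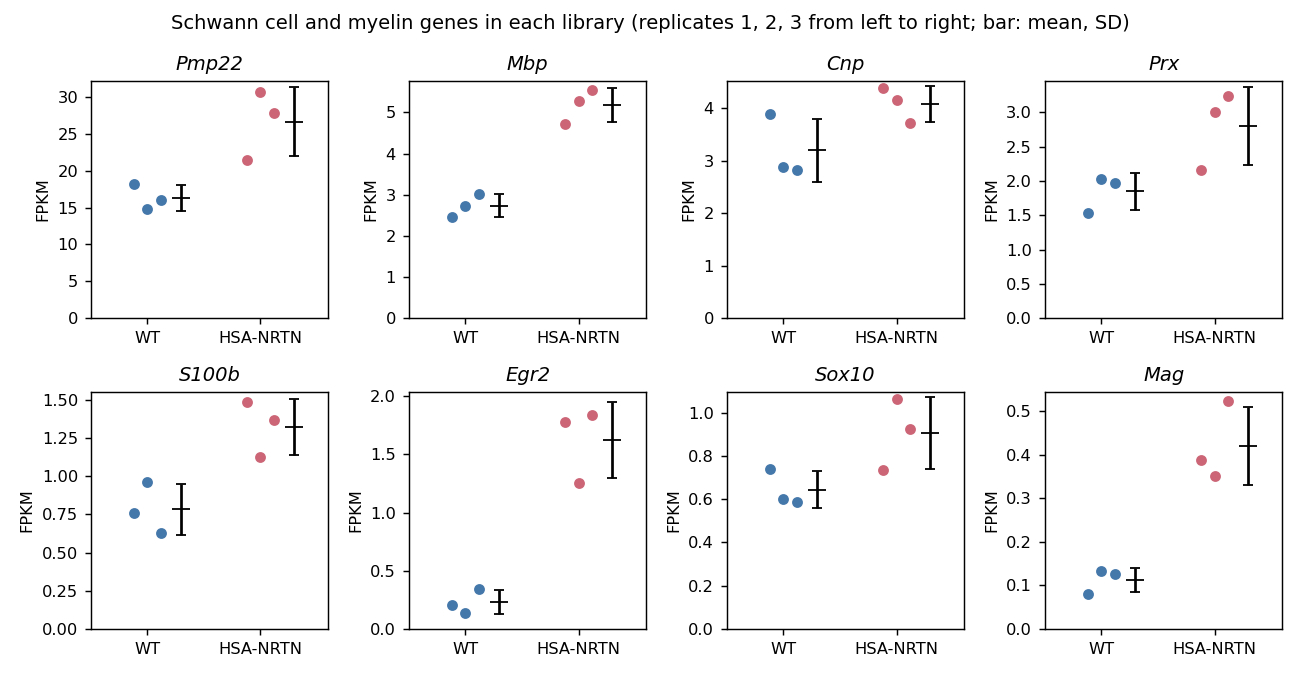
Level of each of the 8 genes in FPKM (vertical axis, from 0) in the WT and HSA-NRTN libraries, one point per library, with the mean and SD of 3 beside them. The groups overlap for Cnp and Sox10 and lie apart for the other 6, most widely for Egr2 (0.14 to 0.342 against 1.25 to 1.84 FPKM).

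The test was limma on log2(FPKM + 1) over the 10755 genes whose mean reached 1 FPKM, with Benjamini-Hochberg adjusted p under 0.05. Only 5 of the 8 genes reached that mean, and S100b did so only through HSA-NRTN, its WT mean being 0.785 FPKM. Of these 5, 4 rose and 0 fell, at an unadjusted p under 0.05 all 5 were higher, and among all tested genes 41.6% rose and 11.7% fell. With the size factors 2 of the 5 rose, against 21.1% of all tested genes, of which 29.9% fell. A second fit with a pseudocount of 0.1 and a minimum mean of 0.1 FPKM took in all 8 genes and 16650 genes in all, and is the source of the values for Egr2, Mag and Sox10. There 6 of the 8 rose and 35.3% of all tested genes did (8.32% fell), and with the size factors 4 of the 8 rose and 19.1% of all did (20.2% fell). With limma-voom on whole reads recovered from the table, as many as 7 of the 8 rose, against 38.1% of all genes, of which 8.73% fell. The same 4 genes, Egr2, Mag, Mbp and Pmp22, had an adjusted p under 0.05 in the authors' deposited table, where 18.0% of the genes with an adjusted p were called higher and 17.8% lower. In the second fit the median log2 change of the 8 genes was 0.69 and that of all tested genes 0.29, and with the size factors these medians were 0.41 and 0.02. Groups of FPKM values did not overlap, with HSA-NRTN higher, for 6 of the 8 genes and for 44.1% of all genes in that fit (11.7% with HSA-NRTN lower). After scaling by the size factors this held for 4 of the 8 and for 25.6% of all (26.3% lower).

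**Figure D2:**
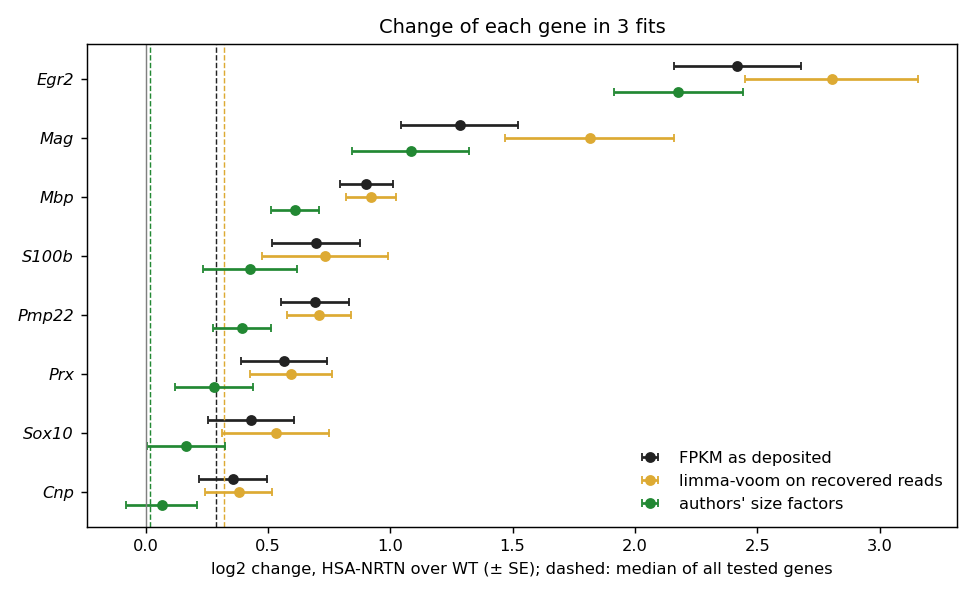
Log2 change of each gene, HSA-NRTN over WT (horizontal axis), with its SE, in 3 fits on genes with a mean from 0.1 FPKM up: FPKM as deposited, limma-voom on recovered reads, and the authors' size factors; dashed lines mark the median change of all tested genes in each fit. Egr2 (2.42), Mag (1.28) and Mbp (0.90) lie well to the right of the FPKM median of 0.29, and Cnp (0.36) lies next to it.

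Promoter windows are shown for Egr2, Mag and Pmp22, the genes called higher under both scalings for which RefSeq gave a window (GRCm38.p6, 250 bases before to 50 after a start). The window shown is that of the RefSeq start nearest to the transcription start site which the deposited table lists for the gene. For Egr2 and Pmp22 that site lies downstream of the outermost start of the gene. Capitals mark ACAAAG or ACAATG, a core bound by SOX factors, GGGCG, the core shared by GC boxes and by the EGR site GCGNGGGCG, and the CArG box bound by serum response factor, all searched on both strands; the search for the CArG box was added after the Egr2 window was seen. The Egr2 window is chr10:67537619-67537918 on the plus strand, that of Mag chr7:30914814-30915113 on the minus strand and that of Pmp22 chr11:63131207-63131506 on the plus strand.
Egr2: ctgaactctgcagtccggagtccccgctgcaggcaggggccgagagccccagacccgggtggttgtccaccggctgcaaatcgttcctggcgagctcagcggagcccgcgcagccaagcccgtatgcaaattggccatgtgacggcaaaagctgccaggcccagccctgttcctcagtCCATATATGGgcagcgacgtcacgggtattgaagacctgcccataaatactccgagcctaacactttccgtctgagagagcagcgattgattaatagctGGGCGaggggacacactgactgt
Mag: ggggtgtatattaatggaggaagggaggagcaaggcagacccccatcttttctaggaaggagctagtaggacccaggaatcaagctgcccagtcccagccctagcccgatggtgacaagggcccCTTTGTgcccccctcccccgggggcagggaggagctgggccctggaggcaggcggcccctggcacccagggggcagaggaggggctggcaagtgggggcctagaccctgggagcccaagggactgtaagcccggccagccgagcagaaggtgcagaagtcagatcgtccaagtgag
Pmp22: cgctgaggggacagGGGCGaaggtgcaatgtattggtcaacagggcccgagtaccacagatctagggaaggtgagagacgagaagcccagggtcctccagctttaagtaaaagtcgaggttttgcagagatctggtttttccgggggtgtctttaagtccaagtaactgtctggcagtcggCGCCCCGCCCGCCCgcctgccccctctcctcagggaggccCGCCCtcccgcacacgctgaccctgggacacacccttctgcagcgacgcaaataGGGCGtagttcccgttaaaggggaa
Windows were found for 6 of the 8 genes. Among these 6 windows that of Egr2 held the only CArG box, and 1.63% of 32851 windows of all genes held one. At the outermost Egr2 start, the window chr10:67535249-67535548 held no CArG box and 5 matches of GGGCG. SOX cores stood in 2 of the 6 windows, those of Mag and Cnp, against 28.6% of all windows. GGGCG stood in 4 of the 6, with 6 matches in Pmp22, against 47.0% of all. At the outermost Pmp22 start, the window chr11:63128732-63129031 held no GGGCG. The full EGR site was in 0 of the 6 and in 5.55% of all windows. A match describes the letters and not a bound site, and reads counted per gene do not show which start was used.

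Mbp rose under both scalings and in every alternative tried. Mbp (ENSMUSG00000041607; GRCm38 chromosome 18, 82475146 to 82585637, plus strand) was at 2.45, 2.72 and 3.02 FPKM in WT 1, 2 and 3, from 565, 722 and 893 reads, and at 4.71, 5.28 and 5.54 FPKM in HSA-NRTN 1, 2 and 3, from 1132, 2233 and 1423 reads. Every HSA-NRTN library lay above every WT library under both scalings. The mean went from 2.73 ± 0.282 to 5.18 ± 0.423 FPKM (SD, n = 3), or 0.73 ± 0.09 in log2 terms (SE; limma, adjusted p = 0.000312), and 0.49 after size-factor scaling (limma, adjusted p = 0.00124). In the authors' deposited table its log2 change was 0.62 (adjusted p = 4.73e-07). The Mbp locus also makes the longer Golli transcripts from an upstream start, and the table counts all of them together.

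Pmp22, whose duplication causes a Charcot-Marie-Tooth neuropathy in humans, was the most abundant of the 8 genes in both groups. It (ENSMUSG00000018217; chromosome 11, 63128982 to 63159547, plus strand) was at 18.2, 14.7 and 16.1 FPKM in WT and at 21.5, 30.7 and 27.8 FPKM in HSA-NRTN. HSA-NRTN 1 was the lowest of its group and still above the highest WT library. From a mean of 16.3 ± 1.73 to 26.7 ± 4.68 FPKM (SD, n = 3), the log2 change was 0.66 ± 0.13 (SE; limma, adjusted p = 0.00353). It was 0.38 with the size factors (limma, adjusted p = 0.0239), where HSA-NRTN 1 came close to WT 1 without overlap. In the authors' deposited table its change was 0.40 (adjusted p = 0.00463). Fibroblasts also make Pmp22, and the 8 fibroblast markers summed to between 299 and 340 FPKM in WT and between 551 and 668 FPKM in HSA-NRTN. Their part in the change of Pmp22 was not tested.

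Mag was the rarest of the 8 genes and rose by the second largest factor. It (ENSMUSG00000036634; chromosome 7, 30899176 to 30914873, minus strand) was counted in 9, 17 and 18 reads in the WT libraries and in 45, 72 and 65 reads in the HSA-NRTN libraries. These gave 0.0806, 0.132 and 0.125 FPKM in WT against 0.387, 0.352 and 0.522 FPKM in HSA-NRTN, so the lowest HSA-NRTN library stood well above the highest WT library. On the log2(FPKM + 0.1) scale, which understates changes at this level, the change was 1.28 ± 0.24 (SE; limma, adjusted p = 0.00432), and 1.08 with the size factors (limma, adjusted p = 0.00991). On recovered reads limma-voom gave 1.82 ± 0.35 (SE; adjusted p = 0.00141), and the authors' deposited table gives 1.58 (adjusted p = 0.000948).

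Prx rose on FPKM as deposited and was not called with the size factors. It (ENSMUSG00000053198; chromosome 7, 27499324 to 27520214, plus strand) was at 1.54, 2.03 and 1.97 FPKM in WT and at 2.16, 3.01 and 3.23 FPKM in HSA-NRTN. HSA-NRTN 1 stood only just above WT 2, and the size factors made the groups overlap. Its log2 change was 0.41 ± 0.13 (SE; limma, adjusted p = 0.0246), and 0.20 with the size factors (limma, adjusted p = 0.168). Without WT 1, HSA-NRTN 2 or HSA-NRTN 3 the call also ended (limma, adjusted p = 0.0744, 0.0825 and 0.0870; log2 change 0.33, 0.37 and 0.33), as it did without a filter on low values (adjusted p = 0.0706). Of the exon length of Prx, 5.38% overlaps exons of the opposite-strand gene Gm15541, and the labels do not say whether strand was kept.

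Cnp did not pass the test under either scaling. It (ENSMUSG00000006782; chromosome 11, 100574904 to 100591729, plus strand) was at 3.88, 2.88 and 2.81 FPKM in WT and at 4.38, 4.15 and 3.71 FPKM in HSA-NRTN. WT 1 lay inside the HSA-NRTN range. The log2 difference was 0.28 ± 0.11 (SE; limma, adjusted p = 0.0570), and 0.05 with the size factors (limma, adjusted p = 0.724). Without WT 1 the FPKM difference was called (log2 change 0.40; limma, adjusted p = 0.00826), as it was with limma-voom on the recovered reads (0.38; adjusted p = 0.0397). Of the exon length of Cnp, 4.23% overlaps exons of the opposite-strand gene Dnajc7.

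Of the 2 transcription factor genes, Egr2 rose several-fold and Sox10 did not pass the test. Egr2 (ENSMUSG00000037868; chromosome 10, 67535475 to 67542188, plus strand) was at 0.204, 0.140 and 0.342 FPKM in WT, from 19, 15 and 41 reads. In HSA-NRTN it was at 1.78, 1.25 and 1.84 FPKM, from 173, 214 and 191 reads. Even its lowest HSA-NRTN library stood far above the highest WT library. The mean went from 0.229 ± 0.103 to 1.62 ± 0.323 FPKM (SD, n = 3), or 2.42 ± 0.26 in log2 terms (SE; limma on log2(FPKM + 0.1), adjusted p = 0.000387), and 2.18 after size-factor scaling (limma, adjusted p = 0.000755). In the authors' deposited table the change was 2.52 (adjusted p = 7.09e-14).

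Sox10 (ENSMUSG00000033006; chromosome 15, 79154908 to 79165240, minus strand) was at 0.741, 0.603 and 0.586 FPKM in WT and at 0.734, 1.06 and 0.922 FPKM in HSA-NRTN. HSA-NRTN 1 fell inside the WT range. With 58 to 163 reads per library, the log2 difference was 0.43 ± 0.18 (SE; limma on log2(FPKM + 0.1), adjusted p = 0.0834), and 0.17 ± 0.16 with the size factors (limma, adjusted p = 0.444). Leaving out HSA-NRTN 1 gave a call (0.56; limma, adjusted p = 0.0414). The authors' deposited table gives 0.20 (adjusted p = 0.624).

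S100b, a calcium-binding protein used as a stain for Schwann cells, rose on FPKM as deposited and was not called with the size factors. It (ENSMUSG00000033208; chromosome 10, 76253853 to 76261159, plus strand) was at 0.762, 0.961 and 0.631 FPKM in WT and at 1.49, 1.13 and 1.37 FPKM in HSA-NRTN, from 31 to 84 reads per library. The FPKM groups did not overlap, whereas after scaling by the size factors HSA-NRTN 2 (0.979) fell below WT 2 (1.08). Its log2 change was 0.38 ± 0.10 (SE; limma, adjusted p = 0.0129), and 0.23 with the size factors (limma, adjusted p = 0.105). Adipocytes also make S100b. The 8 adipocyte markers summed to between 126 and 144 FPKM in WT and between 248 and 452 FPKM in HSA-NRTN, and their part in the change of S100b was not tested.

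In order of level per length, the WT libraries placed Pmp22 first, followed by Cnp, Mbp, Prx, S100b, Sox10, Egr2 and Mag. Neighbours whose WT ranges overlapped were Cnp with Mbp and S100b with Sox10. In HSA-NRTN the order was Pmp22, Mbp, Cnp, Prx, Egr2, S100b, Sox10 and Mag, and only Egr2 and S100b overlapped as neighbours. Mbp passed Cnp by mean FPKM, though in WT 3 it was already above Cnp (3.02 against 2.81 FPKM). Egr2 went from below Sox10 in every WT library to above it in every HSA-NRTN library.

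Levels relative to Sox10 within a library do not depend on the scaling between libraries, and these ratios were chosen after the values were seen. Egr2 stood at 0.275, 0.232 and 0.584 times Sox10 in WT and at 2.43, 1.18 and 1.99 times Sox10 in HSA-NRTN. Mag stood at 0.109, 0.220 and 0.214 times Sox10 in WT and at 0.527, 0.331 and 0.566 times Sox10 in HSA-NRTN. Pmp22 stood at 24.5, 24.5 and 27.5 times Sox10 in WT and at 29.3, 28.9 and 30.1 times Sox10 in HSA-NRTN. These 3 genes kept the groups apart, which 14.1% of all genes did with HSA-NRTN higher and 24.6% with it lower. For each of them the two-sided exact permutation p was 0.10, the smallest that 3 against 3 libraries can give, and 0.18 adjusted over the 9 ratios computed. The ratios of Mbp (exact permutation p = 0.20), S100b (p = 0.60), Cnp (p = 0.60) and Prx (p = 0.80) to Sox10 overlapped between the groups.

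**Figure D3:**
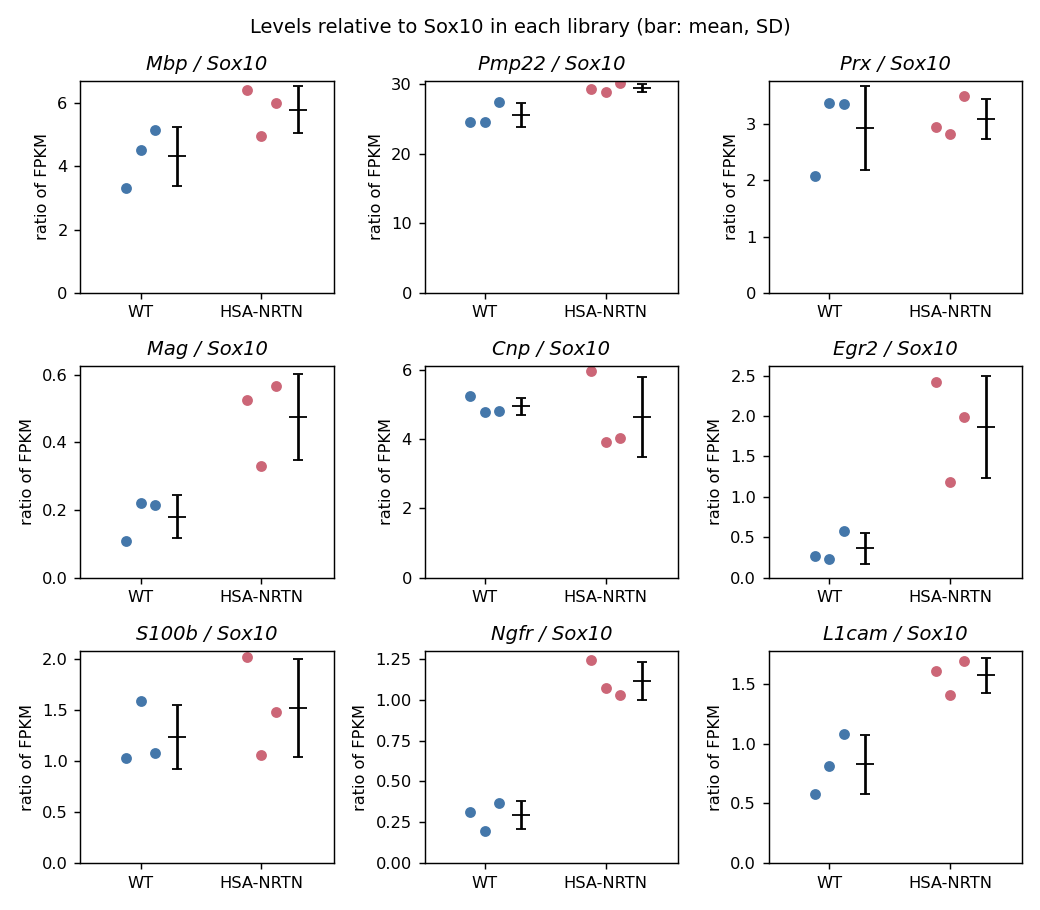
FPKM of 9 genes divided by the FPKM of Sox10 in the same library (vertical axis, from 0), one point per library, with the mean and SD of 3. Egr2, Mag, Ngfr and L1cam lie clearly higher in HSA-NRTN, Pmp22 by a small margin (24.5 to 27.5 against 28.9 to 30.1), and the ratios of Mbp, Prx, Cnp and S100b overlap between the groups.

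Other Schwann cell and myelin genes were read from a list of 43, of which 42 were in the table. From a mean of 1 FPKM up, 15 were tested, and 12 rose and 2 fell (41.6% and 11.7% of all tested genes). With the size factors 6 rose and 2 fell, against 21.1% and 29.9% of all tested genes. The median log2 change of the 15 was 0.40, and 0.23 with the size factors. In the second fit, from 0.1 FPKM, 39 were tested, 17 rose and 2 fell (35.3% and 8.32% of all), and with the size factors 7 rose and 2 fell (19.1% and 20.2% of all). Gjb1, Nfasc, Gal3st1 and Gfra3, named here after their values were seen, had WT means of 0.0729, 0.0720, 0.0931 and 0.0950 FPKM and reached the minimum only through HSA-NRTN, and of these Gfra3 is among those that rose (limma, adjusted p = 0.0420). Without HSA-NRTN 2 those that rose in the second fit were 10 and without HSA-NRTN 3 they were 11, with 1 that fell in each case. Of the other 3 genes, Nrg1 and Gfap were at 0 in every WT library, and Sox2 was at most 0.0870 FPKM in any library. In HSA-NRTN, Nrg1 and Gfap were near 0 as well, at most 0.00338 and 0.0166 FPKM.

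Among myelin and membrane protein genes of the list, Cd9 and Mal are described here. From a mean of 1 FPKM up, 4 of 4 tested rose, and 2 with the size factors (41.6% and 21.1% of all tested genes). In the second fit 3 of 10 rose and 0 fell, against 35.3% higher among all tested genes. With the size factors 1 of these 10 rose, against 19.1%. Cd9, a tetraspanin found in many cell types besides Schwann cells, was at 13.1, 11.3 and 12.2 FPKM in WT and at 22.9, 21.7 and 21.5 FPKM in HSA-NRTN, and rose under both scalings (log2 change 0.81 and 0.52; limma, adjusted p = 7.47e-05 and 0.00117). Exons of the opposite-strand gene Gm26728 overlap 10.7% of the exon length of Cd9. Mal, a proteolipid of myelin and other membranes, rose from 1.25 ± 0.297 to 1.76 ± 0.117 FPKM (SD, n = 3; limma, adjusted p = 0.0405). It was not called after size-factor scaling (limma, adjusted p = 0.354) or in the second fit (limma, adjusted p = 0.0528).

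Of the receptor and ligand genes of the list, Ngfr rose the most. Ngfr, the low-affinity neurotrophin receptor, which immature and denervated Schwann cells carry, was at 0.233, 0.120 and 0.214 FPKM in WT and at 0.914, 1.14 and 0.949 FPKM in HSA-NRTN. In reads these were 13 to 26 against 90 to 197. Its log2 change was 1.95 ± 0.22 (SE; limma on log2(FPKM + 0.1), adjusted p = 0.000432), and 1.71 with the size factors (limma, adjusted p = 0.000739). Lgi4, a secreted signal that promotes myelination, rose from 1.33 ± 0.0903 to 2.34 ± 0.256 FPKM and Lpar1, a lysophosphatidic acid receptor, from 2.95 ± 0.298 to 4.59 ± 0.433 FPKM (SD, n = 3), both called under both scalings. Of the exon length of Lgi4, 44.9% overlaps exons of the opposite-strand gene Fxyd3. Erbb3, the neuregulin receptor of Schwann cells, rose from 1.07 ± 0.116 to 1.81 ± 0.490 FPKM, and was not called after size-factor scaling (limma, adjusted p = 0.104). In all, 7 of the 9 receptor and ligand genes tested in the second fit rose and 0 fell, against 35.3% higher among all tested genes, and 3 rose with the size factors, against 19.1%. The 7 include Gfra3, which reached the minimum of that fit only through HSA-NRTN (WT mean 0.0950 FPKM).

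Genes of other roles moved both ways. Among 5 tested genes of non-myelinating and immature Schwann cells 2 rose under both scalings, against 35.3% of all tested genes on FPKM and 19.1% with the size factors. Those were Scn7a, a sodium channel gene, from 2.05 ± 0.265 to 3.47 ± 0.445 FPKM, and the adhesion gene L1cam, from 0.519 ± 0.103 to 1.42 ± 0.207 FPKM (SD, n = 3; limma on log2(FPKM + 0.1), adjusted p = 0.00115, and 0.00238 with the size factors). Nab2, a corepressor that binds EGR factors, rose from 2.21 ± 0.609 to 4.69 ± 1.19 FPKM under both scalings, while its relative Nab1 was at 4.59 ± 0.636 and 4.37 ± 0.795 FPKM. Of the exon length of Nab2, 35.7% overlaps exons of the opposite-strand gene Gm16229. Itgb4, an integrin of the Schwann cell surface, rose from 1.61 ± 0.130 to 2.24 ± 0.121 FPKM and was not called with the size factors (limma, adjusted p = 0.192). Exons of the opposite-strand gene B230344G16Rik overlap 7.66% of the exon length of Itgb4. The 2 genes that fell, under both scalings, were Fgd4 (2.61 ± 0.280 to 1.21 ± 0.233 FPKM), a regulator of Cdc42 mutated in a human neuropathy, and Art3 (35.3 ± 2.82 to 26.6 ± 3.33 FPKM), which skeletal muscle also expresses.

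**Figure D4:**
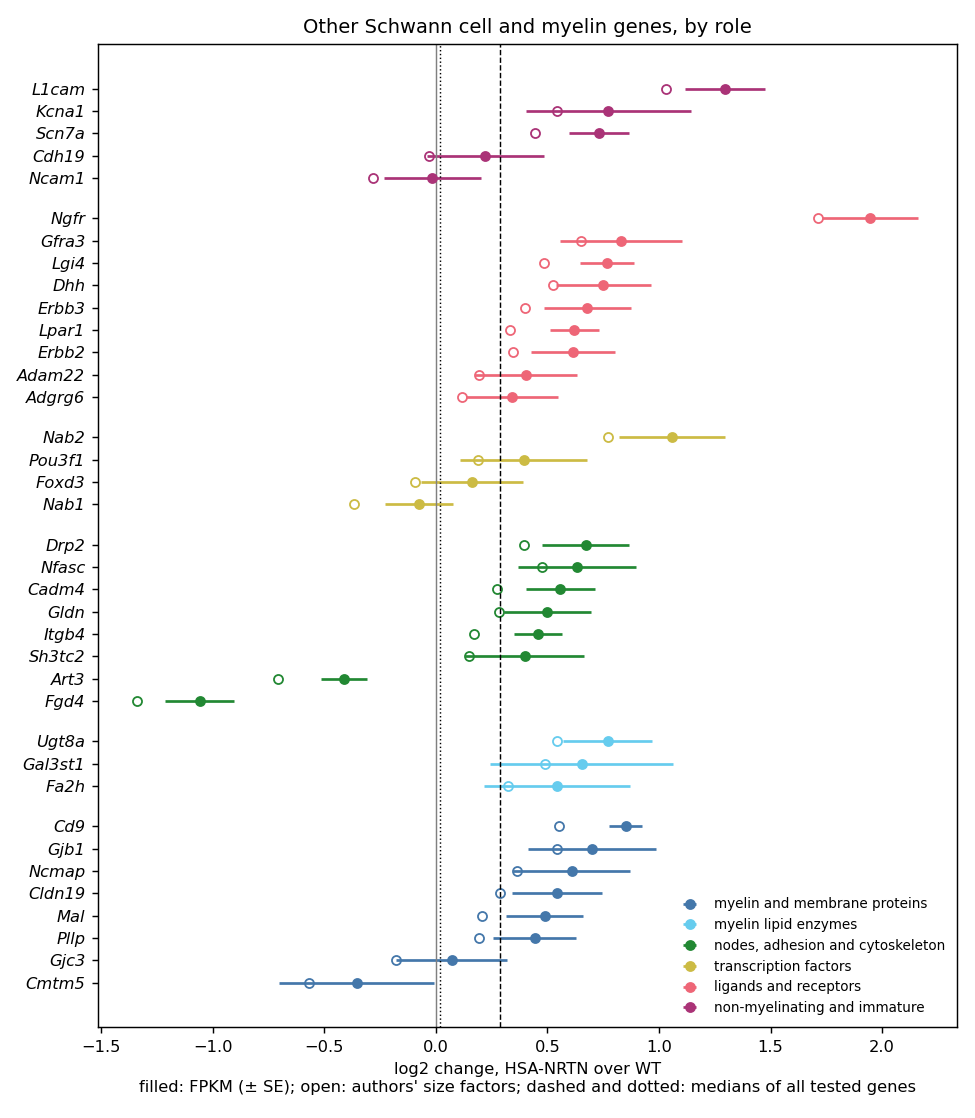
Log2 change, HSA-NRTN over WT (horizontal axis), of 37 of the 39 listed genes tested from a mean of 0.1 FPKM, ordered within each role; filled points with SE are FPKM, open points the authors' size factors, and dashed and dotted lines the medians of all tested genes (0.29 and 0.02). Ngfr and L1cam lie farthest to the right and Fgd4 farthest to the left (-1.06).

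Markers of other cells in the muscle moved with these genes. In the second fit 35.3% of all tested genes rose, and 19.1% with the size factors. All 10 macrophage markers rose under both scalings in the second fit, and their summed level ran from 60.4 to 82.6 FPKM in WT and from 364 to 389 FPKM in HSA-NRTN. Lyz2 went from 27.9 ± 4.62 to 198 ± 9.94 FPKM and C1qb from 10.9 ± 2.32 to 51.5 ± 2.65 FPKM (SD, n = 3). Macrophages can express Egr2, and the part of these cells in the change of Egr2 was not tested. Of 8 endothelial markers 8 rose (4 with the size factors), with sums from 84.7 to 93.7 FPKM in WT and from 116 to 145 FPKM in HSA-NRTN. All 8 fibroblast markers rose (7 with the size factors), and of 8 adipocyte markers 7 rose and none fell (2 rose and 1 fell with the size factors).

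Egr2 is also an immediate early gene in many cells. Of 9 genes of the immediate early list 5 rose and none fell under either scaling in the second fit (35.3% and 19.1% of all tested genes rose), with sums from 60.6 to 94.2 FPKM in WT and from 82.5 to 166 FPKM in HSA-NRTN, which overlap. Egr1 was at 4.82, 2.53 and 7.70 FPKM in WT and at 21.2, 13.6 and 11.5 FPKM in HSA-NRTN. It was called higher in the second fit (limma, adjusted p = 0.0106, and 0.0267 with the size factors). Fos was at 6.48, 2.84 and 6.90 FPKM in WT and at 30.3, 23.4 and 5.49 FPKM in HSA-NRTN, and was not called in the second fit (limma, adjusted p = 0.0709). In the main test Fos was just called higher (limma, adjusted p = 0.0495), and not with the size factors (limma, adjusted p = 0.0986). Nr4a1 was at 54.7 ± 8.27 and 60.4 ± 20.9 FPKM (SD, n = 3) and was not called in the second fit (limma, adjusted p = 0.774). This gene alone made up most of the summed level in each WT library, so the overlap of the sums rests largely on it.

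Axon genes were measured as well. The table held 9 axon genes, of which 5 were tested in the second fit, and 1 rose under both scalings, Stmn2, from 0.678 ± 0.0747 to 1.26 ± 0.179 FPKM (SD, n = 3), against 35.3% of all tested genes on FPKM and 19.1% with the size factors. Uchl1 was at 1.52 ± 0.596 and 1.99 ± 0.496 FPKM, with overlap. Oligodendrocyte genes, which would mark central myelin, were at or near 0, with Mog and Hapln2 together at most 0.0721 FPKM in any library. Melanocytes, which also express Sox10, left little trace: Pmel, Dct and Tyr together came to at most 0.105 FPKM.

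**Figure D5:**
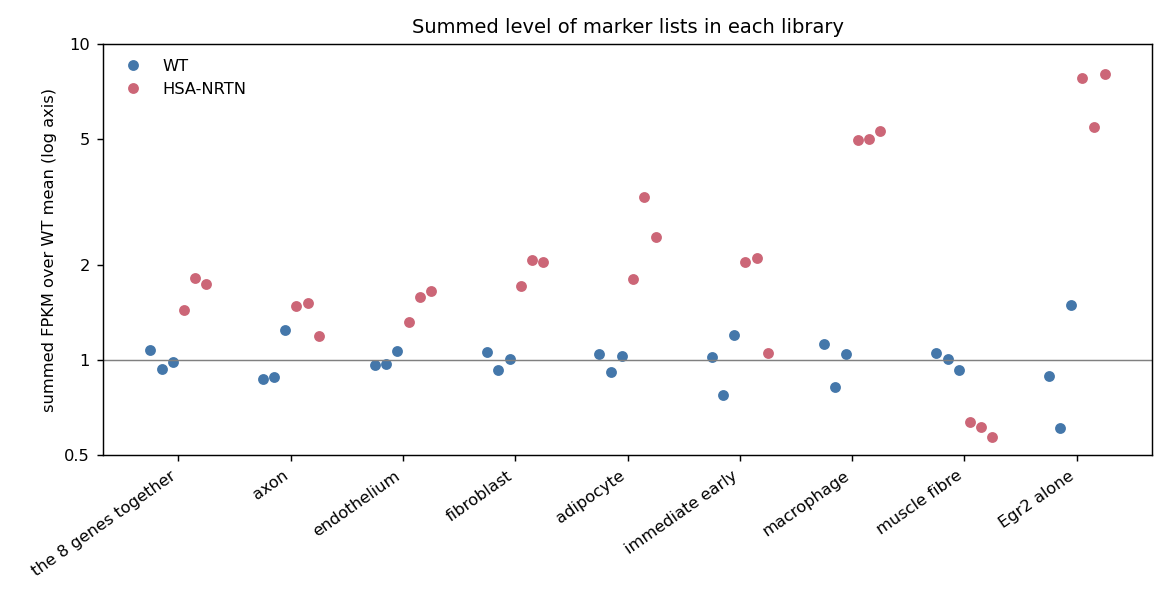
Summed FPKM of each marker list divided by its WT mean (vertical log axis), one point per library, with Egr2 alone on the right. The HSA-NRTN mean was 1.66 times the WT mean for the sum of the 8 genes, 5.10 times for macrophage markers and 0.607 times for muscle fibre markers.

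Genes with the pattern over the 6 libraries most like that of a given member were found by the root mean square distance between centred log2(FPKM + 1) values, among 10172 or 10173 named genes. The distance is small for any gene with a similar difference between the groups, and low genes move little on this scale. Closest to Mbp were Ugdh (distance 0.0184) and Ormdl2 (0.0222), closest to Pmp22 were Fam43a (0.0449) and P3h4 (0.0470), and closest to Prx were Pcf11 (0.0380) and Sparcl1 (0.0405). Nearest to Egr2 were Ptma (0.0469) and Ly6c1 (0.0684), and nearest to Sox10 were Tmem214 (0.0133) and Rexo1 (0.0171). Mag lay nearest to Cmc2 (0.0197) and Tmod2 (0.0257), Cnp to Rpl28 (0.0253) and Ddo (0.0276), and S100b to Mpc2 (0.0285) and Minos1 (0.0454). Only genes whose mean reached 1 FPKM could be found as neighbours, among them 5 of the 8 members and 15 of the 42 listed Schwann cell genes. None of those was among these 16, and the others could not be.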

How the data were processed

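Per the labels' protocols, total RNA of frozen gastrocnemius was made into TruSeq libraries. The submitters' processing notes name Cuffdiff, Cufflinks, DESeq2, HISAT2 and HTSeq, and the build GRCm38, without versions or settings. The authors deposited one table with FPKM per library, scaled to library totals without a correction for composition. It also holds the authors' mean signal per gene (reads divided by size factors), the authors' log2 fold changes with errors, the authors' test score and the authors' p-values. The FPKM columns do not name their unit. Together with the mean signal, all nonzero values (127467, 100%) came out as whole reads to 0.01 read, which also gave the size factors. Recovered reads totalled 27418154 to 50291845 per library, so 1 read in 1 kilobase is 0.0199 to 0.0365 FPKM; this limits precision by counting error only.

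Groups and replicate numbers come from the labels. The main test was limma 3.58.1 (R 4.3.3) run on log2(FPKM + 1) with its trend option, for genes whose mean reached 1 FPKM and without a block. The second fit used a pseudocount of 0.1 and a minimum of 0.1 FPKM. Fold changes on these scales understate changes of low genes. The fits were also run on simulated reads with known changes in a small set of genes. No broad shift between the groups was simulated, so that run does not bear on the choice of scaling. Alternatives were the size factors, quantile normalization, limma-voom on recovered reads, a replicate block, other filters and pseudocounts, and each library left out. The 8 genes, the lists and the tests were chosen with earlier results of these data known. Named genes are the 8, Nrtn, Erbb3 and Ngfr, the 3 smallest p in each Schwann sub-list, the 2 most abundant genes of each marker list, and the 2 nearest patterns of each gene; L1cam, Sox2, Nrg1, Gfap, Egr1, Tyr and genes overlapping in sequence are named besides, after their values were seen. Some genes that the rule picks are not reported here.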

Additional observations from a re-analysis of the deposited data

How the results depend on the processing

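Egr2 and Mag (12 alternatives each), Mbp (13) and Pmp22 (14) stayed higher and called in every alternative run, with log2 changes from 1.09 to 2.80, 0.35 to 1.82, 0.48 to 0.92 and 0.38 to 0.80. Prx was called in 7 of 13, S100b in 11 of 13, Cnp in 3 of 13 and Sox10 in 1 of 12. Sox10 turned to -0.081 with quantile normalization (limma, adjusted p = 0.733). With the size factors, 2 of the 5 genes, 6 of 15 listed Schwann cell genes (7 of 39 in the second fit), and 2264 of all genes were called higher and 3217 lower, against 4476 and 1255 for FPKM; quantile normalization gave 2, 6, 8, 2377 and 2889. A mean of at least 5 FPKM left 1 of the 8 genes, which rose, and 3 listed genes, of which 2 rose and 1 fell; it gave 2023 of all genes higher, as fewer were tested. Leaving out 1 library gave 10 to 17 listed genes higher and 1 to 2 lower in the second fit; with all libraries they were 17 and 2. The cause of the other shifts was not tested. Correlations of deviations between libraries of the same replicate number were 0.0828, -0.17 and 0.188 for numbers 1, 2 and 3. Between libraries of different numbers they ran from -0.195 to 0.101. With 3 libraries per group, these values cannot decide whether the numbers pair the libraries. With the replicate block 5 of the 5 genes rose, with Cnp called (limma, adjusted p = 0.0333), as did 10 of 15 listed genes (14 of 39 in the second fit) and 4309 of all 10755 genes, with 1212 lower, and 6 with the size factors as well.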
